A study of Homo sapiens with 12 samples.

Results

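The effect of sonidegib pretreatment in SAHA-treated cells was examined by comparing 3 combination libraries with 3 SAHA libraries, 6 of the 12 libraries of the series. The members were all genes whose TPM averaged 1 or more in the 12 libraries, which left 13937 of 59324 genes in the table, 11995 of them protein-coding. All cells were of the human line MDA-MB-468, from a breast cancer that lacks hormone receptors and HER2 amplification and has an amplified EGFR gene. SAHA cells had been given SAHA at 10 µM for 12 h, and cells with sonidegib alone had sonidegib at 10 µM as a pretreatment of 72 h. The combination label names only SAHA and sonidegib, without dose or time. The same doses and times were assumed for it. The other 6 libraries, 3 of sonidegib alone and 3 of control, were used to ask whether sonidegib acted differently without SAHA. The labels do not say whether sonidegib stayed on the cells during the SAHA treatment, or whether the SAHA cells were kept for the same 72 h with the solvent. Nothing states that replicate libraries were grown as separate cultures, and a p-value therefore sets a difference only against the spread among these libraries, which may be technical.

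SAHA (vorinostat) inhibits the zinc-dependent histone deacetylases, enzymes that remove acetyl groups from histones and other proteins. Blocking them raises histone acetylation, changes the transcription of many genes in both directions and typically induces the cell cycle inhibitor p21. Sonidegib blocks Smoothened (SMO), a receptor-like protein in the cell membrane through which Hedgehog ligands activate the GLI transcription factors. In Hedgehog-driven tumours it lowers GLI target genes, of which GLI1 and the receptor PTCH1 are the usual readouts.

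Values were TPM, a share of all transcripts corrected for transcript length, which keeps no read counts, so sequencing depth cannot be given. The combination libraries had 20718 to 21140 genes above 0, against 21269 to 21402 in the SAHA libraries. On the log2(TPM + 1) scale and across genes, the correlation among combination libraries was 0.972 to 0.978, among SAHA libraries 0.977 to 0.979, and between a combination and a SAHA library 0.938 to 0.945. Each library thus correlated more closely with its own group than with the other across all genes, but no test for outlying libraries was run with 3 per group. Of 6 genes known to be expressed in this line all 6 were measured, with EGFR at 566, 537 and 627 TPM in the combination and 605, 516 and 585 TPM in SAHA. The other 5 were present but called lower in the combination, among them KRT18 at 670.4 against 1615 TPM, CDH1 at 33.5 against 46.9 TPM and EPCAM at 192 against 251 TPM, and 4 were called lower after quantile normalization. The oestrogen receptor ESR1 stood at 0.43, 0.32 and 0.37 TPM in the combination and 0.23, 0.26 and 0.4 TPM in SAHA, and the progesterone receptor PGR was listed at 0 in all 6 libraries. Of 10 leukocyte markers 7 stayed below 1 TPM in all 6 libraries, CD3D and NKG7 among them at 0, while CD14 alone made up most of a sum of 217 to 233 TPM in the combination and 312 to 348 TPM in SAHA. The 10 fibroblast and endothelial markers summed to 11.2 to 11.8 TPM and 12.3 to 15.6 TPM, and the 8 erythroid and hepatic markers to 1.75 to 1.79 TPM and 3.27 to 4.26 TPM. One feature of the whole series followed sonidegib. The 17 annotated 5S ribosomal RNA genes, which every cell uses, summed to 5135, 2984 and 1488 TPM in the combination libraries and were listed at 0 in all 3 SAHA libraries. They were likewise above 0 in the sonidegib libraries and at 0 in the control libraries. Whether libraries with and without sonidegib were prepared or processed alike is not stated, and such a difference and the effect of sonidegib cannot be told apart in any of these comparisons.

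Genes called in the combination against SAHA were about as many as genes without a call. Of 13937 genes tested 7100 passed the test (50.9%), with 2506 higher in the combination (18.0%) and 4594 lower (33.0%). At least 2-fold changes on the log2(TPM + 1) scale numbered 349 higher (2.50%) and 706 lower (5.07%). For 6810 of the 7100 called genes the 3 combination libraries and the 3 SAHA libraries did not overlap. Call and overlap rest on the same values, so this count is no separate support for the calls. The share without overlap over all tested genes is not given here. Falls did not outnumber rises under every scaling: the median log2 change of all tested genes was -0.12, median-of-ratios scaling moved it to 0.00, and the calls were then 3589 higher and 3644 lower. The counts were 3521 and 3683 after 75th percentile scaling and 3708 and 3686 after quantile normalization. Changes are therefore read against a median of -0.12 throughout. A test here is limma's moderated test on log2(TPM + 1) over all 12 libraries, a called gene has a Benjamini-Hochberg adjusted p under 0.05 over all tested genes, and changes are given with their standard error. Genes named for the largest changes, among all genes or within a list, had to show no overlap between combination and SAHA libraries. For these genes the absence of overlap is therefore no further evidence.

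The split also moved with base composition. Among protein-coding genes in the fifth with the lowest GC content (32.0% to 42.6% of transcript bases), 20.6% were called higher and 22.3% lower, with a median change of -0.01. In the fifth with the highest GC content (59.1% to 75.2%), 15.6% were called higher and 47.3% lower, with a median of -0.26. In sonidegib against control the corresponding medians were -0.09 and 0.03. After each library was centred within bins of GC content, 3744 genes were higher and 3695 lower, and 449 rather than 706 were at least 2-fold lower. Whether the trend arose in the cells or in the libraries was not tested.

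**Figure D1:**
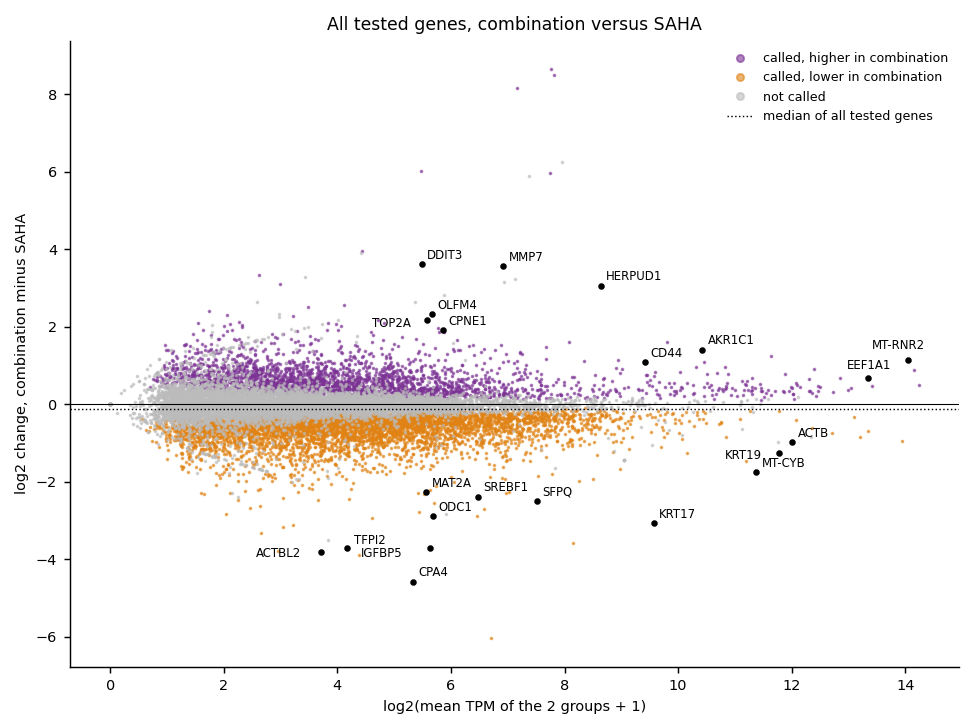
Log2 change of each of 13937 tested genes (combination minus SAHA, vertical axis) against log2 of the mean TPM of both groups plus 1 (horizontal axis), with called genes coloured by direction and some named genes marked in black. The dotted line is the median of all tested genes at -0.12, and the largest marked changes are DDIT3 at 3.62 and CPA4 at -4.59. Points beyond them are genes that code for no protein, such as 5S ribosomal RNA genes.

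Of the 3 largest rises in protein-coding genes, DDIT3, MMP7 and HERPUD1, the first and the last belong to the response to endoplasmic reticulum stress, in which the cell adjusts to unfolded proteins. HERPUD1 (ENSG00000051108, chromosome 16, 56932048 to 56944863, plus strand; all gene positions are GRCh38), a membrane protein of the reticulum that helps to send misfolded proteins to the proteasome, had 715, 726 and 683 TPM in the combination libraries, against 82.9, 87.1 and 82.4 TPM in the SAHA libraries (log2 change 3.06 ± 0.079, adjusted p = 1.41e-09). Each combination library was several times as high as any SAHA library. DDIT3 (ENSG00000175197, chromosome 12, 57516588 to 57521737, minus strand), the stress transcription factor CHOP, had 69.96, 92.8 and 83.6 TPM in the combination libraries, against 5.50, 5.56 and 6.12 TPM in the SAHA libraries (log2 change 3.62 ± 0.17, adjusted p = 4.22e-08). Its levels in the combination libraries were spread over a wider range than those in SAHA. CHAC1, an enzyme that degrades glutathione and is induced downstream of ATF4, had 26.2, 24.8 and 26.7 TPM in the combination libraries, against 5.59, 6.60 and 4.91 TPM in the SAHA libraries (log2 change 2.01 ± 0.11, adjusted p = 1.36e-07). In all 3 genes the groups were far apart. Sonidegib alone gave a mean of 212 TPM for HERPUD1, 53.8 TPM for DDIT3 and 15.3 TPM for CHAC1, against 71.02, 6.48 and 9.02 TPM in control.

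Genes of the amino acid response, most of them targets of the transcription factor ATF4, were more often higher than lower. Of 24 tested 14 rose and 3 fell, with a median log2 change of 0.32 against -0.12 over all genes, and 16 and 2 after median-of-ratios scaling. ATF4 itself had 804, 846 and 862 TPM in the combination libraries, against 579.6, 604 and 596 TPM in the SAHA libraries (log2 change 0.50 ± 0.04, adjusted p = 1.81e-06), without overlap. DDIT4, an inhibitor of mTORC1 signalling, rose by 1.29 ± 0.14, the stress-induced repressor ATF3 by 1.07 ± 0.23 and the secreted stress factor GDF15 by 0.91 ± 0.16. Rises were smaller in the leucine sensor SESN2 (0.74 ± 0.078), the asparagine synthetase ASNS (0.53 ± 0.083) and the pseudokinase TRIB3 (0.26 ± 0.051). The falls were in ATF5, a transcription factor that guards against misfolded proteins (-1.02 ± 0.16), CDKN1A, which the list shares with the cell cycle inhibitors, and the neutral amino acid transporter SLC1A5 (-0.14 ± 0.046, but 0.08 after quantile normalization and 0.07 after GC centring). PPP1R15A, which ends the response by helping to dephosphorylate the translation factor eIF2, had 13.7, 15.7 and 16.8 TPM in the combination and 14.8, 17.1 and 15.2 TPM in SAHA and was not called (log2 change -0.03 ± 0.11, adjusted p = 0.853).

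Chaperones and degradation factors of the endoplasmic reticulum moved in both directions. Of 23 tested 7 rose and 7 fell, with a median of -0.02, and median-of-ratios scaling gave 8 and 6. Beside HERPUD1 the rises included stress sensors and their transcription factor. XBP1, which drives chaperone genes, had 141, 135 and 151 TPM in the combination libraries, against 61.1, 57.97 and 64.7 TPM in the SAHA libraries (log2 change 1.20 ± 0.059, adjusted p = 5.66e-08). The kinase EIF2AK3 (PERK) had 16.8, 20.2 and 21.1 TPM in the combination libraries, against 9.14, 9.82 and 11.6 TPM in the SAHA libraries (log2 change 0.87 ± 0.14, adjusted p = 3.26e-04). The kinase and nuclease ERN1 (IRE1) averaged 4.16 ± 0.282 TPM in the combination and 2.09 ± 0.261 TPM in SAHA (log2 change 0.74 ± 0.11, adjusted p = 2.17e-04). For all 3 the combination libraries lay above the SAHA libraries. HSPA5 (BiP), the main chaperone of this compartment, rose little, with 465, 484 and 504 TPM in the combination libraries, against 407, 346 and 408 TPM in the SAHA libraries (log2 change 0.33 ± 0.082, adjusted p = 0.00622). CRELD2, a stress-induced factor of the same compartment, was lower instead, with 18.5, 24.04 and 24.6 TPM in the combination libraries, against 48.02, 50.1 and 47.8 TPM in the SAHA libraries (log2 change -1.09 ± 0.095, adjusted p = 3.08e-06). So were the co-chaperones DNAJB11 (53.5 against 102 TPM, -0.92 ± 0.06) and SDF2L1 (66.4 against 108 TPM, -0.70 ± 0.07).

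The promoters of HERPUD1, XBP1, HSPA5, CRELD2 and SDF2L1 are shown because these genes share binding motifs of the unfolded protein response and yet moved apart. A motif search covered 250 bases before to 50 after each gene start in the RefSeq promoter table (GRCh38.p14), on both strands, and these genes and motifs were chosen after their values had been seen. The ER stress element, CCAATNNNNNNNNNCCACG, occurred in 27 of 35116 promoters (0.0769%), and in 7 of the 22 tested genes of this list that have an entry: CALR, CANX, CRELD2, HSP90B1, HSPA5, PDIA6 and XBP1. The ER stress element II, ATTGGNCCACG, occurred in 19 promoters (0.0541%), and in 3 of the 22: HERPUD1, HYOU1 and SDF2L1. Windows of 100 bases around the motif follow, 5′ to 3′ in the direction of the gene, with the motif in capitals.
HERPUD1 (chr16:56931980-56932079, plus strand): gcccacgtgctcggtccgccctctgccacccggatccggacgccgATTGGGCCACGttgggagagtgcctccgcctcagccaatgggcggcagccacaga
SDF2L1 (chr22:21642069-21642168, plus strand): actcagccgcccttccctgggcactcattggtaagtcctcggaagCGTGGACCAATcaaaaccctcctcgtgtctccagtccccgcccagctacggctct
XBP1 (chr22:28800563-28800662, minus strand): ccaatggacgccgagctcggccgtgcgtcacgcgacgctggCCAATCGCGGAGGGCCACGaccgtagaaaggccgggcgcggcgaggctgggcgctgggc
HSPA5 (chr9:125241351-125241450, minus strand): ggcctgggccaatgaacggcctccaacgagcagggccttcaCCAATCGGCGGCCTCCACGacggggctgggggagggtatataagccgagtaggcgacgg
CRELD2 (chr22:49918513-49918612, plus strand): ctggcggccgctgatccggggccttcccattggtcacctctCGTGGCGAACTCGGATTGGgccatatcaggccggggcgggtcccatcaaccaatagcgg
Capitals in HERPUD1 and SDF2L1 mark the ER stress element II and in the other 3 the ER stress element. In SDF2L1 and CRELD2 it reads on the opposite strand. With the same element, HERPUD1 changed by 3.06 and SDF2L1 by -0.70, while XBP1 changed by 1.20, HSPA5 by 0.33 and CRELD2 by -1.09. The C/EBP-ATF response element TGATGNAAT, which lay in 0.991% of all promoters, was found in none of 22 promoters of the amino acid response list, nor in those of the NRF2 and cholesterol lists. The letters searched are a strict form, and windows beyond 250 bases were not searched.

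Cytosolic heat shock proteins were lower in the combination. Of 17 tested 1 rose and 15 fell, with a median of -0.49, and after median-of-ratios scaling 1 rose and 13 fell. Most of these proteins fold other proteins in the cytosol and respond to the transcription factor HSF1. The list also holds the mitochondrial chaperones HSPD1 and HSPE1. HSPA1A, the stress-inducible HSP70, had 242, 239.8 and 238 TPM in the combination libraries, against 706, 804 and 776 TPM in the SAHA libraries (log2 change -1.66 ± 0.053, adjusted p = 5.90e-09), and the 2 sets of libraries were far apart. HSPA1B, whose sequence is nearly identical so that reads can be shared, changed by -1.16 ± 0.074. DNAJA1, an HSP70 partner, changed by -1.0 ± 0.083 and HSP90AA1, the inducible HSP90, by -0.73 ± 0.13. The exception was DNAJB4, another HSP70 partner, which rose by 0.59 ± 0.14. The heat shock element unit GAANNTTC, present in 6.77% of all promoters, was found in 9 of the 16 promoters that could be read. HSPA1A, printed as the gene with the largest fall on this list, carries it once (capitals).
HSPA1A (chr6:31815391-31815490, plus strand): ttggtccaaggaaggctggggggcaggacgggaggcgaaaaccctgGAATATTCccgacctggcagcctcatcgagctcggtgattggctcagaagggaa

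**Figure D2:**
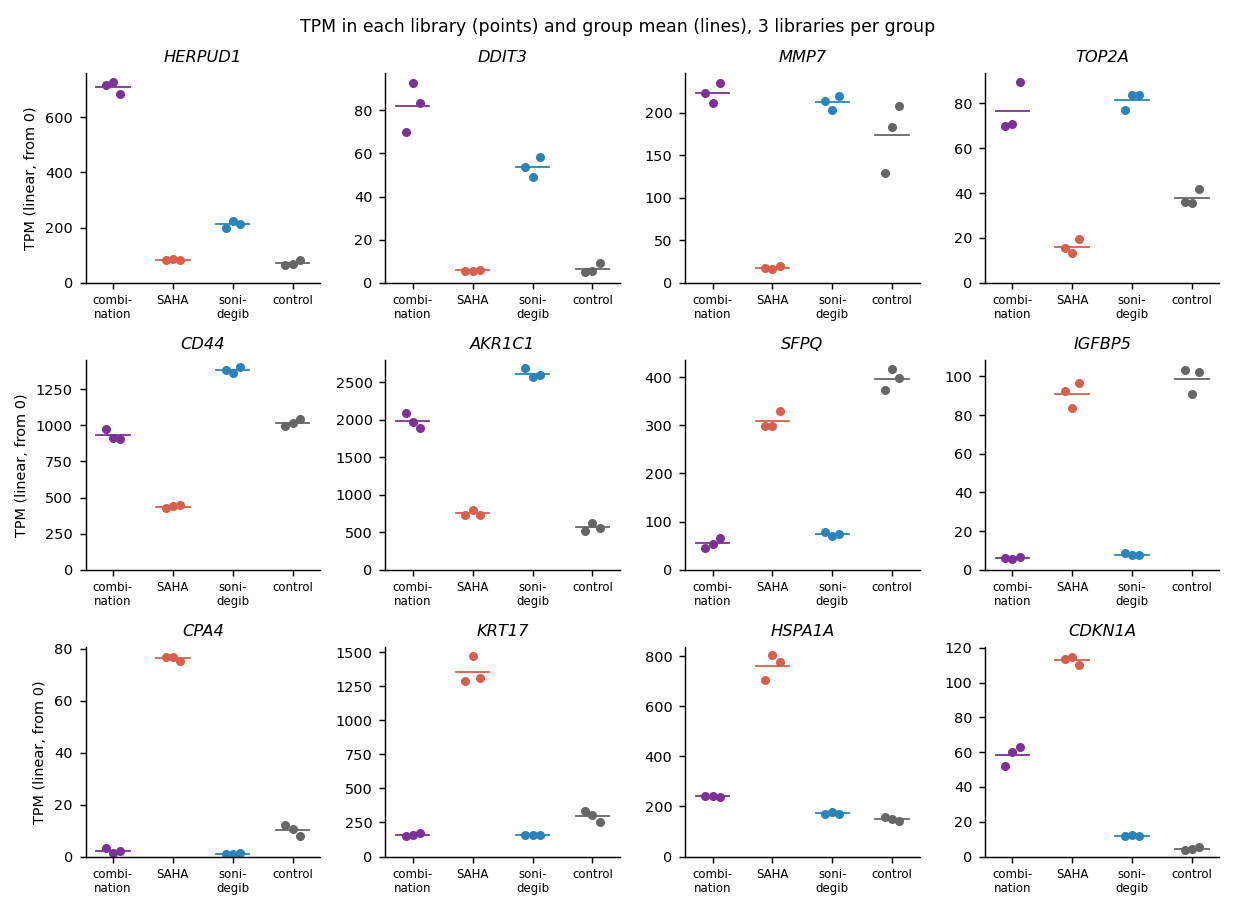
TPM of 12 genes in every library (points, linear axes from 0) with the mean of each group (lines), for combination, SAHA, sonidegib and control. HERPUD1 and DDIT3 are highest in the combination, the combination means of SFPQ and IGFBP5 are 54.6 and 6.07 TPM beside sonidegib means of 74.1 and 7.84 TPM, and CPA4 and KRT17 are highest with SAHA alone.

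Genes of cell division were higher in the combination than with SAHA alone. Of 35 G2/M and mitosis genes 30 rose and 0 fell, with a median of 0.96 against -0.12 over all genes (limma, and also 0 lower at an unadjusted p under 0.05). After median-of-ratios scaling 32 rose and 0 fell. TOP2A (ENSG00000131747, chromosome 17, 40388516 to 40417950, minus strand), the topoisomerase that untangles chromosomes before division, had 69.7, 71.01 and 89.6 TPM in the combination libraries, against 15.6, 13.4 and 19.5 TPM in the SAHA libraries (log2 change 2.19 ± 0.13, adjusted p = 2.03e-07). The combination libraries were all above the SAHA libraries, and the sonidegib and control means were 81.4 and 37.9 TPM. CDK1, the kinase that starts mitosis, had 83.2, 90.7 and 111 TPM in the combination libraries, against 34.2, 31.01 and 42.4 TPM in the SAHA libraries (log2 change 1.38 ± 0.13, adjusted p = 4.99e-06). The spindle genes KIF20A (1.21 ± 0.058) and HMMR (1.56 ± 0.27), the kinase AURKB (1.30 ± 0.093), the centromere histone CENPA (1.30 ± 0.13), survivin BIRC5 (1.29 ± 0.096) and the transcription factor FOXM1 (0.96 ± 0.082) rose as well. MKI67, the common proliferation marker, had 16.8, 12.8 and 16.1 TPM in the combination and 9.37, 8.35 and 7.47 TPM in SAHA (log2 change 0.78 ± 0.12, adjusted p = 2.07e-04), and its 2 groups did not overlap. SPC24, a kinetochore protein, and SMC4, a condensin subunit, were among the 15 largest rises of protein-coding genes at 5 TPM or more in a group, with 2.10 ± 0.14 and 1.92 ± 0.23.

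DNA replication genes moved in both directions. Of 41 S phase and DNA replication genes 19 rose and 5 fell, with a median of 0.22. The rises included enzymes that make DNA precursors, of which thymidylate synthase TYMS had 69.03, 65.5 and 66.1 TPM in the combination libraries, against 25.8, 20.5 and 20.7 TPM in the SAHA libraries (log2 change 1.55 ± 0.092, adjusted p = 2.05e-07). Thymidine kinase TK1 stood at 158 against 59.3 TPM (1.40 ± 0.088). They also included the origin licensing factors CDT1 (1.44 ± 0.078) and CDC6 (1.20 ± 0.15). All 5 falls were in the replicative helicase or the sliding clamp of the DNA polymerases. The clamp PCNA had 149, 161 and 193 TPM in the combination libraries, against 255, 256 and 277 TPM in the SAHA libraries (log2 change -0.65 ± 0.089, adjusted p = 9.66e-05), and the helicase subunits MCM2 (-0.51 ± 0.062), MCM6 (-0.45 ± 0.088), MCM3 and MCM5 were lower. After median-of-ratios scaling 24 genes of this list rose and 4 fell. Homologous recombination and crosslink repair genes rose in 11 of 26 and fell in 1, with a median of 0.25. RAD54L, a motor protein of strand exchange, had 16.9, 15.3 and 17.2 TPM in the combination libraries, against 4.58, 5.06 and 4.85 TPM in the SAHA libraries (log2 change 1.58 ± 0.077, adjusted p = 5.66e-08), and the nuclease EXO1 changed by 1.12 ± 0.10. BRCA1, a tumour suppressor of this repair route, averaged 10.5 ± 2.78 TPM in the combination and 5.72 ± 0.771 TPM in SAHA (log2 change 0.75 ± 0.16, adjusted p = 0.00225). BRCA2, of the same route, was not called, with 1.18, 1.18 and 1.18 TPM in the combination and 0.98, 1.13 and 0.8 TPM in SAHA (log2 change 0.15 ± 0.14, adjusted p = 0.41).

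Cell cycle inhibitors and growth arrest genes did not move as one. Of 17 tested 9 rose and 2 fell, with a median of 0.34. GADD45A, which inhibits CDK1, had 122, 140.4 and 156 TPM in the combination libraries, against 52.00, 43.3 and 59.3 TPM in the SAHA libraries (log2 change 1.42 ± 0.12, adjusted p = 2.88e-06). CDKN1A (p21), the best known target of deacetylase inhibitors, had 51.8, 59.98 and 63.2 TPM in the combination libraries, against 114, 115 and 110.1 TPM in the SAHA libraries (log2 change -0.95 ± 0.10, adjusted p = 1.99e-05), so every combination library lay below every SAHA library. Sonidegib and control means were 11.9 and 4.38 TPM. The retinoblastoma gene RB1 was the other fall (-0.66 ± 0.15) and its relative RBL2 rose (0.79 ± 0.11). Among pro-apoptotic genes 3 of 21 rose and 10 fell, with a median of -0.22, although GC centring gave 6 and 6. The rises included the BH3-only genes BBC3, or PUMA (5.26 against 1.93 TPM, 1.09 ± 0.18), and PMAIP1, or NOXA (9.37 against 4.69 TPM, 0.86 ± 0.19), and the falls included BIK (6.87 against 20.1 TPM, -1.42 ± 0.12) and BAD (-0.69 ± 0.078). BCL2L11 (BIM) was not called, with 23.7, 28.2 and 24.97 TPM in the combination and 24.3, 21.4 and 24.4 TPM in SAHA (log2 change 0.13 ± 0.083, adjusted p = 0.22), but was called at 0.26 after median-of-ratios scaling. Of 9 anti-apoptotic genes 1 rose and 2 fell, a majority that turned to 3 and 2 after median-of-ratios scaling, with BCL2L1 (BCL-XL) at 29.3 against 44.2 TPM (-0.58 ± 0.054).

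Most ribosomal protein mRNAs were higher. Of 48 tested 43 rose and 0 fell, with a median of 0.36 (limma, and 0 lower at an unadjusted p under 0.05), and 44 rose and 0 fell after median-of-ratios scaling. After quantile normalization 33 rose and 1 fell, with a median of 0.20. They took up 23.2%, 23.4% and 22.2% of all TPM in the combination libraries, against 17.7%, 18.1% and 18.0% in the SAHA libraries, so the groups did not overlap. RPS24 had 2304, 2346 and 2453 TPM in the combination and 1404, 1281 and 1460.5 TPM in SAHA (log2 change 0.78 ± 0.056, adjusted p = 7.87e-07), and RPL13A averaged 6187 ± 220.5 TPM in the combination and 3936 ± 88.2 TPM in SAHA (log2 change 0.65 ± 0.047, adjusted p = 8.42e-07). EEF1A1, the elongation factor whose mRNA is regulated with them, averaged 12798 ± 61.1 TPM in the combination and 8062 ± 354 TPM in SAHA (log2 change 0.67 ± 0.043, adjusted p = 3.42e-07). Processed pseudogenes of ribosomal proteins can take reads from these mRNAs, so single values are less certain than the direction of the list. A mixed list of MYC-related genes and genes of nucleolar ribosome biogenesis mostly moved the other way. Of 28 MYC and nucleolar ribosome biogenesis genes 3 rose and 18 fell, with a median of -0.40, and 4 and 16 after median-of-ratios scaling. NOP56, which guides methylation of ribosomal RNA, averaged 42.5 ± 3.82 TPM in the combination and 100.5 ± 6.63 TPM in SAHA (log2 change -1.22 ± 0.11, adjusted p = 2.92e-06), and the MYC partner MAX averaged 34.1 ± 2.22 TPM in the combination and 83.3 ± 8.59 TPM in SAHA (log2 change -1.26 ± 0.13, adjusted p = 1.26e-05). Nucleophosmin NPM1 was one of the 3 rises (0.82 ± 0.086). MYC itself had 33.8, 35.2 and 37.9 TPM in the combination and 35.8, 35.6 and 40.9 TPM in SAHA and was not called (log2 change -0.07 ± 0.091, adjusted p = 0.566), its libraries overlapping between the groups.

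Of 26 splicing regulators 3 rose and 14 fell, with a median of -0.33, and 6 and 13 after median-of-ratios scaling. SFPQ, a paraspeckle and splicing protein that is not on this list but among the 15 largest falls, had 45.9, 53.2 and 64.9 TPM in the combination libraries, against 299, 299 and 330.4 TPM in the SAHA libraries (log2 change -2.49 ± 0.10, adjusted p = 2.60e-08), and no library of one group came near the other. SRSF2, a serine and arginine rich splicing factor, had 39.8, 38.1 and 46.1 TPM in the combination libraries, against 200.0, 209 and 211 TPM in the SAHA libraries (log2 change -2.30 ± 0.092, adjusted p = 1.90e-08), and its relatives SRSF1 (-1.69 ± 0.15) and SRSF5 (-1.60 ± 0.16) were lower too. HNRNPU (-1.47 ± 0.052), U2AF2 (-1.25 ± 0.072) and HNRNPM (-1.18 ± 0.051) fell, whereas HNRNPA1 (0.56 ± 0.043) and SRSF4 (0.78 ± 0.083) rose. DDX39B, an RNA helicase of splicing and mRNA export, stood at 70.6 against 192 TPM (-1.43 ± 0.07). Proteasome subunits fell in 18 of 27 and rose in 2, with a median of -0.33, PSMC4 averaging 76.6 ± 3.91 TPM in the combination and 175 ± 10.1 TPM in SAHA (log2 change -1.18 ± 0.066, adjusted p = 1.33e-07).

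**Figure D3:**
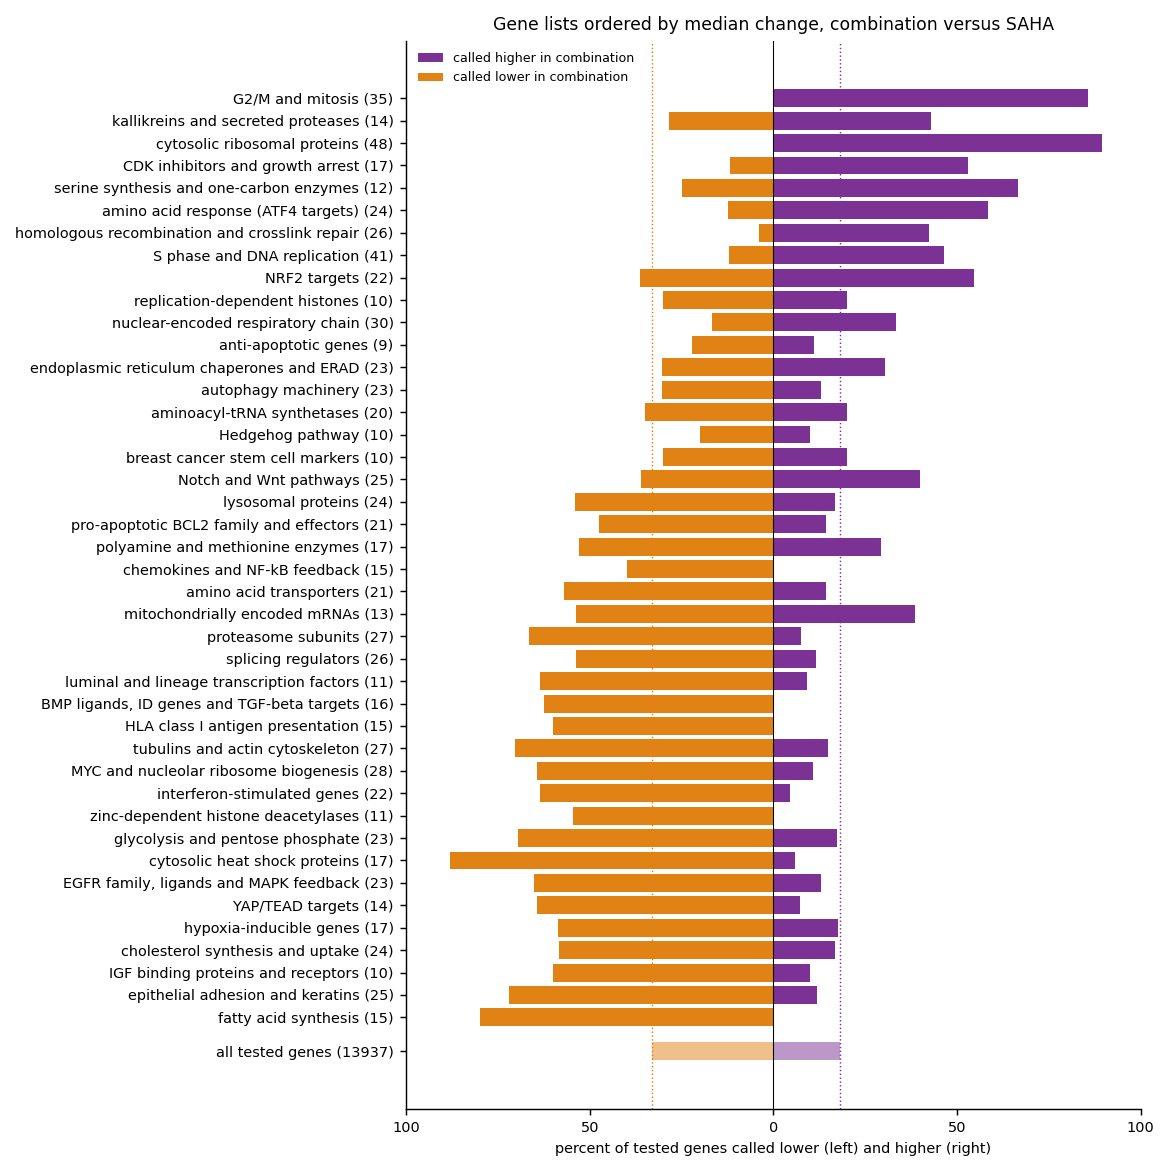
Percent of the tested genes of each list called higher (right) and lower (left) in the combination, for the lists with at least 9 tested genes (number in brackets), ordered from the highest median change at the top. The pale bars and dotted lines give all 13937 genes, at 18.0% higher and 33.0% lower, and the lists of G2/M genes and ribosomal proteins have no lower bar.

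Lipid synthesis genes were mostly lower. Of 15 fatty acid synthesis genes 0 rose and 12 fell, with a median of -0.62 (limma, with 1 higher at an unadjusted p under 0.05), and 2 and 11 after median-of-ratios scaling. SREBF1, the transcription factor that drives this pathway, had 20.4, 34.7 and 29.2 TPM in the combination libraries, against 147, 148 and 149 TPM in the SAHA libraries (log2 change -2.39 ± 0.15, adjusted p = 2.92e-07), and the spread within the combination was larger than in SAHA. The desaturase FADS3 had 13.8, 13.5 and 13.5 TPM in the combination libraries, against 66.3, 77.6 and 67.1 TPM in the SAHA libraries (log2 change -2.28 ± 0.10, adjusted p = 3.96e-08), and FADS1 changed by -1.45 ± 0.11. CPT1A, which brings fatty acids into mitochondria for oxidation and is not on the list, averaged 31.02 ± 0.991 TPM in the combination and 73.02 ± 3.48 TPM in SAHA (log2 change -1.21 ± 0.065, adjusted p = 1.02e-07). Cholesterol synthesis and uptake genes fell in 14 of 24 and rose in 4, with a median of -0.58. Late enzymes of the pathway that fell were SC5D (-1.24 ± 0.16), LSS (-1.16 ± 0.064) and CYP51A1 (-1.05 ± 0.12). MSMO1, also a late enzyme, rose instead, with 77.9, 81.2 and 97.2 TPM in the combination libraries, against 34.9, 29.2 and 39.4 TPM in the SAHA libraries (log2 change 1.29 ± 0.14, adjusted p = 1.78e-05). The regulator SREBF2 had 84.9, 84.3 and 84.1 TPM in the combination and 52.9, 53.04 and 53.03 TPM in SAHA (log2 change 0.66 ± 0.049, adjusted p = 1.02e-06), and both groups were tight. HMGCS1, an early enzyme, was not called, at 50.5 against 51.6 TPM (log2 change -0.04 ± 0.17, adjusted p = 0.85), and neither was SQLE, the squalene oxidase, at 48.8 against 52.5 TPM (log2 change -0.11 ± 0.10, adjusted p = 0.405).

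Sugar, redox and one-carbon genes gave mixed pictures. Glycolysis and pentose phosphate genes fell in 16 of 23 and rose in 4, with a median of -0.45. The lactate exporter SLC16A3 had 23.9, 26.2 and 26.2 TPM in the combination libraries, against 102, 119 and 95.5 TPM in the SAHA libraries (log2 change -2.01 ± 0.15, adjusted p = 1.15e-06). PFKL, a phosphofructokinase, rose (0.82 ± 0.099). Of 22 NRF2 targets 12 rose and 8 fell, with a median of 0.21, and 12 and 3 after median-of-ratios scaling. Aldo-keto reductases of the AKR1C group were among the rises. AKR1C1 had 2087, 1975 and 1894 TPM in the combination libraries, against 725, 799 and 724 TPM in the SAHA libraries (log2 change 1.40 ± 0.068, adjusted p = 5.34e-08), AKR1C3 changed by 1.31 ± 0.057 and AKR1C2 by 0.79 ± 0.042, and these close relatives can share reads. AKR1B10, another aldo-keto reductase, fell (10.2 against 16.7 TPM, -0.67 ± 0.10). Ferritin FTH1 also rose (0.47 ± 0.051). HMOX1, which degrades haem, was lower with 17.3, 17.7 and 19.3 TPM in the combination and 26.8, 30.9 and 27.7 TPM in SAHA (log2 change -0.63 ± 0.07, adjusted p = 2.17e-05). NQO1, a quinone reductase and standard target, was lower as well (-0.21 ± 0.053), although it was not called after median-of-ratios scaling (-0.08). Among 6 tested metallothioneins MT1X rose, with 2373, 2355 and 2431 TPM in the combination and 1148, 1334 and 1192 TPM in SAHA (log2 change 0.97 ± 0.056, adjusted p = 1.79e-07), and MT1F fell (-0.67 ± 0.13). Serine synthesis and one-carbon enzymes rose in 8 of 12 and fell in 3, with a median of 0.33, the mitochondrial folate enzyme MTHFD2 at 135 against 72.8 TPM (0.87 ± 0.11). Polyamine and methionine enzymes rose in 5 of 17 and fell in 9. ODC1, which makes putrescine, had 9.59, 12.3 and 11.7 TPM in the combination libraries, against 88.5, 94.9 and 84.2 TPM in the SAHA libraries (log2 change -2.89 ± 0.10, adjusted p = 1.04e-08). MAT2A, which makes S-adenosylmethionine, had 13.8, 15.96 and 15.9 TPM in the combination libraries, against 69.2, 78.8 and 83.5 TPM in the SAHA libraries (log2 change -2.27 ± 0.10, adjusted p = 4.07e-08). SAT1, which sends polyamines to breakdown, rose (1895 against 889 TPM, 1.08 ± 0.12). No library of ODC1, MAT2A or SAT1 crossed into the range of the other group, which the rule for naming them required.

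Many transcripts of the Hedgehog pathway were scarce. Of 20 listed genes 10 passed the expression filter, of which 1 rose and 2 fell with a median of -0.13. Over all tested genes 18.0% rose and 33.0% fell, with a median of -0.12. With 10 genes these counts are no result about the pathway as a whole. They became 2 and 2 after median-of-ratios scaling and 3 and 2 after GC centring. The ligand SHH was at 0.01 TPM or less in all 6 libraries. GLI1 had 1.25, 1.36 and 1.58 TPM in the combination libraries, against 1.01, 2.26 and 2.0 TPM in the SAHA libraries, overlapping between the groups, and tested without the filter it changed by -0.17 ± 0.19 (adjusted p = 0.597). SMO, the protein that sonidegib binds, had 0.18, 0.05 and 0.09 TPM in the combination libraries, against 0.55, 0.36 and 0.38 TPM in the SAHA libraries, without overlap but below the filter. Without the filter its change was -0.37 ± 0.099 (adjusted p = 0.02). The receptor PTCH1 had 4.89, 6.78 and 5.26 TPM in the combination and 5.13, 4.96 and 5.53 TPM in SAHA (log2 change 0.09 ± 0.14, adjusted p = 0.621). The inhibitor SUFU had 6.13, 6.13 and 6.40 TPM in the combination and 6.94, 7.53 and 6.55 TPM in SAHA (log2 change -0.15 ± 0.087, adjusted p = 0.182). Neither was called. GPR161, a ciliary receptor that restrains the pathway, had 3.27, 2.90 and 2.56 TPM in the combination and 4.66, 5.48 and 5.0 TPM in SAHA (log2 change -0.63 ± 0.10, adjusted p = 3.48e-04), and KIF7, a motor that regulates GLI proteins, fell by a similar amount (-0.57 ± 0.14). HHAT, which attaches palmitate to Hedgehog ligands, rose (1.38 against 0.527 TPM, 0.63 ± 0.17). GLI2 and HHIP stayed at or below 0.3 TPM in all 6 libraries.

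The enzymes that SAHA inhibits were lower or not called at the mRNA level. Of 11 zinc-dependent histone deacetylases 0 rose and 6 fell, with a median of -0.43 (limma, and 0 higher at an unadjusted p under 0.05), and 0 and 5 after median-of-ratios scaling. HDAC1 had 104, 107 and 113 TPM in the combination libraries, against 159, 173 and 171 TPM in the SAHA libraries (log2 change -0.63 ± 0.065, adjusted p = 1.10e-05). HDAC2, its close relative, had 113, 131 and 149 TPM in the combination and 183, 158 and 194 TPM in SAHA (log2 change -0.44 ± 0.10, adjusted p = 0.00415). HDAC3, of the NCoR complex, had 78.4, 88.3 and 91.8 TPM in the combination and 114, 115 and 121 TPM in SAHA (log2 change -0.43 ± 0.069, adjusted p = 3.08e-04). For each of these nuclear deacetylases the groups did not overlap, although HDAC2 was not called after quantile normalization (-0.23). HDAC6, the cytoplasmic tubulin deacetylase, was not called (13.9 against 14.4 TPM, log2 change -0.04 ± 0.13, adjusted p = 0.811). Of 8 tested ABC drug efflux transporters 1 rose and 4 fell. ABCB1 (P-glycoprotein), below the filter, had 0.38, 0.41 and 0.54 TPM in the combination libraries, against 1.57, 2.07 and 2.34 TPM in the SAHA libraries, and tested without the filter it changed by -1.05 ± 0.14 (adjusted p = 3.59e-04). ABCG2 was at 0.09 TPM or less.

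Most epithelial adhesion and keratin genes fell, and 2 secreted products rose steeply. Of 25 epithelial adhesion and keratin genes 3 rose and 18 fell, with a median of -0.62, and 3 and 16 after median-of-ratios scaling. KRT17, a basal keratin with near-identical pseudogenes, had 150.2, 158 and 174 TPM in the combination libraries, against 1290.3, 1473 and 1313 TPM in the SAHA libraries (log2 change -3.07 ± 0.09, adjusted p = 3.89e-09). KRT23 had 25.3, 23.3 and 25.2 TPM in the combination libraries, against 172, 159.8 and 164 TPM in the SAHA libraries (log2 change -2.70 ± 0.057, adjusted p = 2.46e-10), and the abundant keratins KRT19 (2060.1 against 4945 TPM), KRT18 (670.4 against 1615 TPM) and KRT8 (1311 against 2351 TPM) changed by -1.26, -1.27 and -0.84. The 3 rises were KRT15 (0.76 ± 0.077), ESRP1 (0.52 ± 0.07) and KRT6B (0.44 ± 0.10), so keratins moved in both directions. In the opposite direction MMP7 (ENSG00000137673, chromosome 11, 102520508 to 102530753, minus strand), a secreted metalloprotease, had 223, 212 and 235 TPM in the combination libraries, against 17.4, 16.4 and 20.03 TPM in the SAHA libraries (log2 change 3.57 ± 0.14, adjusted p = 1.65e-08). The secreted glycoprotein OLFM4 had 88.8, 72.8 and 90.7 TPM in the combination libraries, against 16.7, 14.00 and 17.1 TPM in the SAHA libraries (log2 change 2.33 ± 0.1, adjusted p = 2.77e-08), and the skin protease KLK5 averaged 164 ± 12.8 TPM in the combination and 77.00 ± 1.55 TPM in SAHA (log2 change 1.08 ± 0.066, adjusted p = 2.30e-07). In all 3 the groups were well apart. Of 10 breast cancer stem cell markers tested 2 rose and 3 fell, near the shares of all tested genes, and 4 and 3 after GC centring. The adhesion receptor CD44 had 977, 910.1 and 905 TPM in the combination libraries, against 426, 442 and 445 TPM in the SAHA libraries (log2 change 1.09 ± 0.04, adjusted p = 1.19e-08). ALDH1A1 was the other rise (0.43 ± 0.078), and the falls were ALDH1A3 (-0.85 ± 0.092), PROM1 (-0.51 ± 0.12) and CD24 (-0.42 ± 0.085).

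Secreted and cytoskeletal products were among the deepest falls. CPA4 (ENSG00000128510, chromosome 7, 130293134 to 130324180, plus strand), a carboxypeptidase, had 3.45, 1.48 and 2.03 TPM in the combination libraries, against 76.9, 76.9 and 75.2 TPM in the SAHA libraries (log2 change -4.59 ± 0.20, adjusted p = 2.77e-08). TFPI2, a protease inhibitor, had 1.26, 1.54 and 1.80 TPM in the combination libraries, against 32.5, 28.03 and 36.3 TPM in the SAHA libraries (log2 change -3.71 ± 0.12, adjusted p = 5.80e-09). IGFBP5, which binds insulin-like growth factors, had 6.29, 5.62 and 6.30 TPM in the combination libraries, against 92.3, 83.9 and 96.4 TPM in the SAHA libraries (log2 change -3.70 ± 0.079, adjusted p = 2.46e-10). These were 3 of the 4 largest falls of protein-coding genes, the other being ACTBL2 at -3.81, an actin relative that can share reads with ACTB (-0.97 ± 0.077). Of 27 tubulin and actin cytoskeleton genes 4 rose and 19 fell, led by CORO1A (49.5 against 188 TPM, -1.91 ± 0.13). GAPDH, often used as a reference, was not called (3209 ± 242 TPM in the combination and 2927 ± 62.6 TPM in SAHA, log2 change 0.13 ± 0.074, adjusted p = 0.164), except at 0.34 after GC centring.

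Several signalling and immune lists had a larger share of falls than the 33.0% of all tested genes. Of 23 tested genes of the EGFR family, its ligands and MAPK feedback 3 rose and 15 fell, with a median of -0.50. EGFR was not called (log2 change 0.02 ± 0.084, adjusted p = 0.863), except at 0.30 after GC centring. The MAPK phosphatase DUSP5 had 13.9, 17.7 and 18.03 TPM in the combination libraries, against 45.1, 45.1 and 47.1 TPM in the SAHA libraries (log2 change -1.42 ± 0.11, adjusted p = 1.34e-06), and the immediate early factor EGR1 changed by -1.17 ± 0.11. ERBB2, another receptor of the family, rose (6.48 against 3.94 TPM, 0.61 ± 0.13). YAP/TEAD targets fell in 9 of 14 and rose in 1. CCN2, a secreted matrix protein, had 15.1, 11.6 and 16.9 TPM in the combination libraries, against 75.3, 76.9 and 75.6 TPM in the SAHA libraries (log2 change -2.32 ± 0.12, adjusted p = 9.04e-08), and its relative CCN1 stood at 58.6 against 181 TPM (-1.61 ± 0.11). Interferon-stimulated genes fell in 14 of 22 and rose in 1, with a median of -0.41, and MX1, an antiviral GTPase, averaged 14.9 ± 3.85 TPM in the combination and 37.1 ± 0.0586 TPM in SAHA (log2 change -1.29 ± 0.13, adjusted p = 8.56e-06). HLA class I antigen presentation genes fell in 9 of 15 and rose in 0 (limma, and 0 higher at an unadjusted p under 0.05), though 2 rose and 7 fell after median-of-ratios scaling and 2 rose and 4 fell after GC centring, with a median of -0.07 in place of -0.38. The peptide transporter TAP1 averaged 30.9 ± 5.01 TPM in the combination and 66.04 ± 2.79 TPM in SAHA (log2 change -1.08 ± 0.099, adjusted p = 4.53e-06). Among chemokines and NF-kB feedback genes 6 of 15 fell and 0 rose (limma, with 1 higher at an unadjusted p under 0.05), a share of falls near that of all tested genes, and 2 rose after median-of-ratios scaling. For CXCL8 the values were 1.35, 1.42 and 6.51 TPM in the combination and 13.8, 12.8 and 14.5 TPM in SAHA (log2 change -2.07 ± 0.38, adjusted p = 7.87e-04), and 1 combination library was several times as high as the others, as it was for CXCL1 (0.59, 0.62 and 2.50 TPM in the combination and 6.44, 5.09 and 7.30 TPM in SAHA). ICAM1 also had 1 combination library above the others (54.4, 50.1 and 101 TPM in the combination and 126, 135 and 134 TPM in SAHA). The Notch receptor NOTCH3 (81.01 against 42.3 TPM, 0.92 ± 0.071) and the Notch target HES1 (48.9 against 27.2 TPM, 0.83 ± 0.077) rose, in a list of 25 Notch and Wnt genes with 10 rises and 9 falls. Among 23 autophagy genes 3 rose and 7 fell, near the shares of all tested genes, and the majority turned to 5 and 4 after median-of-ratios scaling. Lysosomal proteins rose in 4 of 24 and fell in 13, but in 4 and 8 after median-of-ratios scaling, with a median of -0.07 in place of -0.21.

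Mitochondrially encoded transcripts moved apart although most are cut from 1 long precursor. Of 13 mRNAs 5 rose and 7 fell, with a median of -0.32, and 5 and 5 after median-of-ratios scaling. MT-CYB, of complex III, had 1310.0, 1219 and 1113 TPM in the combination libraries, against 4501, 4119 and 3714 TPM in the SAHA libraries (log2 change -1.76 ± 0.095, adjusted p = 1.07e-07), and MT-ND2, of complex I, changed by -1.46 ± 0.10. MT-ND6, of complex I and transcribed from the opposite strand, had 7605, 7433 and 5887 TPM in the combination libraries, against 4071, 3643 and 3439 TPM in the SAHA libraries (log2 change 0.90 ± 0.12, adjusted p = 5.88e-05), with MT-ND5 at 0.77 ± 0.11 and MT-ND4 at 0.67 ± 0.11. The large ribosomal RNA MT-RNR2 had 25672, 23027 and 21434 TPM in the combination libraries, against 11375, 9957 and 10188 TPM in the SAHA libraries (log2 change 1.15 ± 0.1, adjusted p = 3.04e-06). The small one, MT-RNR1, changed by 0.51 ± 0.075. Together the mRNAs held 9.66%, 8.74% and 7.82% of TPM in the combination and 10.4%, 9.76% and 8.83% in SAHA, so their sum overlapped between the groups while MT-CYB and MT-ND6 did not. Mitochondrial ribosomal RNA held 2.86%, 2.56% and 2.41% in the combination and 1.35%, 1.18% and 1.19% in SAHA. MT-ATP8 and MT-ATP6 and the pair MT-ND4L and MT-ND4 overlap in the genome, and use of strand in counting is not given in the sources used here. Nuclear-encoded respiratory chain genes rose in 10 of 30 and fell in 5, with UQCRC2 of complex III averaging 115 ± 7.91 TPM in the combination and 56.9 ± 6.60 TPM in SAHA (log2 change 1.01 ± 0.08, adjusted p = 1.55e-06). These counts moved to 16 and 2 after median-of-ratios scaling, 21 and 2 after quantile normalization and 19 and 2 after GC centring.

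**Figure D4:**
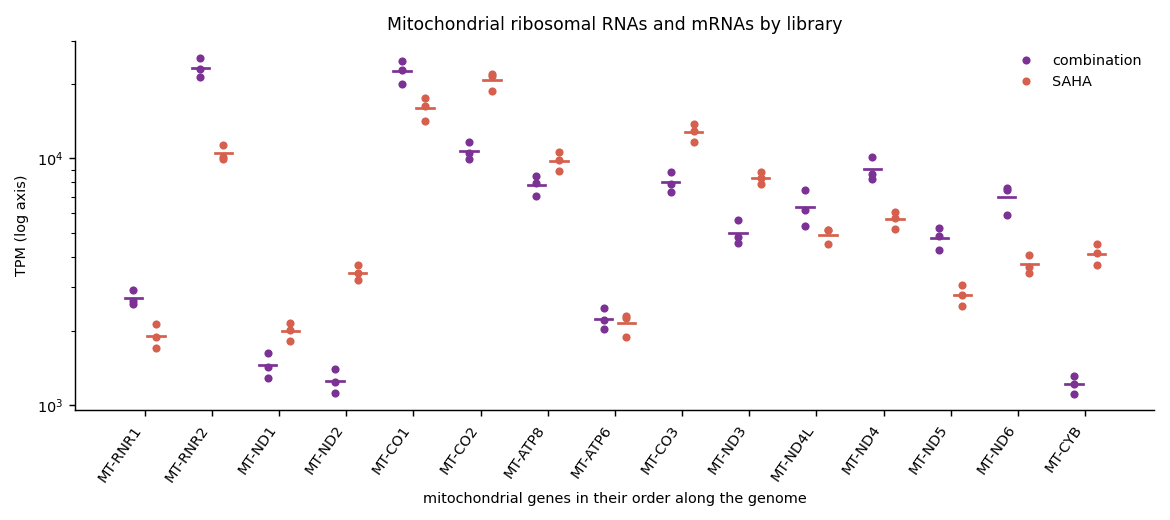
TPM (log axis) of the mitochondrial ribosomal RNAs and mRNAs in each combination and SAHA library (points) with the group means (lines), in their order along the genome. MT-RNR2, MT-ND4, MT-ND5 and MT-ND6 lie higher in the combination and MT-ND2, MT-CO2, MT-CO3 and MT-CYB lower, with no overlap of libraries for these 8.

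Whether sonidegib acted in the same way without SAHA was asked by the interaction, the log2 change between combination and SAHA minus that between sonidegib and control. These 2 comparisons share no library. In sonidegib against control 3641 genes were higher (26.1%) and 4071 lower (29.2%). Of the genes higher in the combination 62.6% were also called higher with sonidegib alone, which was 43.1% of those, and of the genes lower in the combination 58.3% were also called lower with sonidegib alone, 65.8% of those. Across all tested genes the 2 changes correlated at 0.54, over genes that are not independent replicates and share base composition and annotation. The interaction was called for 4381 genes, 1642 positive (11.8%) and 2739 negative (19.7%). Calls in opposite directions occurred for 681 genes, 165 higher in the combination and lower with sonidegib alone and 516 the other way round. The interaction was called for all 681. Opposite calls in the same fit make that outcome nearly certain, so it adds no further evidence.

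Some changes were of similar size with and without SAHA. IGFBP5 changed by -3.70 ± 0.079 in the combination against SAHA, beside -3.50 ± 0.079 in sonidegib against control, and its interaction was -0.20 ± 0.11, adjusted p = 0.195. SRSF2 changed by -2.30 ± 0.092 with SAHA present and -2.26 ± 0.092 without (interaction -0.04 ± 0.13, adjusted p = 0.83). A p that misses the threshold does not show that such changes are equal. HERPUD1 rose further in the presence of SAHA (interaction 1.49 ± 0.11, adjusted p = 4.37e-06), and DDIT3 slightly further (0.71 ± 0.24, adjusted p = 0.0398).

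The 6 largest positive interactions of protein-coding genes at 5 TPM or more in a group were in OLFM4 (3.29), MMP7 (3.25), GAL (3.17), C1orf53 (3.0), ADI1 (2.68) and GLYATL2 (2.61). MMP7 averaged 223 TPM in the combination and 17.9 TPM in SAHA, and 213 TPM with sonidegib and 174 TPM in control. SAHA alone was thus the only group with a low MMP7 level. OLFM4 averaged 84.1 TPM in the combination and 15.9 TPM in SAHA, and 82.1 TPM with sonidegib and 160.1 TPM in control, so sonidegib went with a higher level in SAHA-treated cells and a lower one in the others. For ADI1, an enzyme of methionine salvage, and the neuropeptide GAL, the interaction came from a fall without SAHA (-2.48 ± 0.067 and -2.99 ± 0.18) beside 0.20 ± 0.067 and 0.19 ± 0.18 with it. The 6 largest negative ones by the same rule were in ACTBL2 (-2.99), GMPR (-2.85), BORCS7-ASMT (-2.72), FAM220A (-2.71), CDHR2 (-2.67) and RAET1G (-2.64). ACTBL2 averaged 0.76 TPM in the combination and 23.4 TPM in SAHA, and 0.057 TPM with sonidegib and 0.87 TPM in control. With sonidegib and control both below 1 TPM, the size of its interaction depends on the 1 TPM added before taking logs. GMPR, a reductase of purine metabolism, averaged 12.7 TPM in the combination and 29.1 TPM in SAHA, and 6.03 TPM with sonidegib and 1.15 TPM in control. RAET1G, a ligand of the immune receptor NKG2D, changed by -1.09 ± 0.15 with SAHA present and 1.55 ± 0.15 without. The other 3 rested on scattered libraries. FAM220A ranged over 1.75 to 8.88 TPM in the combination, 3.27 to 15.1 TPM in SAHA, 3.84 to 14.1 TPM with sonidegib and 0.26 to 2.88 TPM in control, and its interaction was not called without control replicate 2 or 3, SAHA replicate 2 or 3, sonidegib replicate 1 or 3, or combination replicate 1 or 3 (-2.87 to -2.15). CDHR2 ranged over 0.3 to 8.17 TPM in control, and its interaction was not called without SAHA replicate 1 or 3, sonidegib replicate 1 or 2, or combination replicate 2 or 3 (-2.69 to -2.44). BORCS7-ASMT, a readthrough transcript, stood at 1.76 to 11.2 TPM with sonidegib and at 1.33 TPM or less in every other library.

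Counts per list differed between the comparisons as well, though no list was tested. Over all tested genes 26.1% were higher and 29.2% lower in sonidegib against control. The interaction was positive for 11.8% and negative for 19.7%. S phase genes, of which 19 rose and 5 fell in the combination against SAHA, had 2 rises and 27 falls among the same 41 in sonidegib against control, and the interaction was positive for 35 and negative for 0. For G2/M genes the sonidegib counts were 20 and 4 of 35, with 24 positive interactions and 0 negative. Interferon-stimulated genes had 9 rises and 1 fall of 22 with sonidegib alone and 17 negative interactions, and lysosomal proteins 14 and 3 of 24 and 15 negative ones. NRF2 targets rose in 18 of 22 with sonidegib alone and fell in 1, with 18 negative interactions. CDKN1A, higher with sonidegib alone (1.27 ± 0.10) and lower in the combination against SAHA, had an interaction of -2.22 ± 0.15, adjusted p = 1.96e-06.

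**Figure D5:**
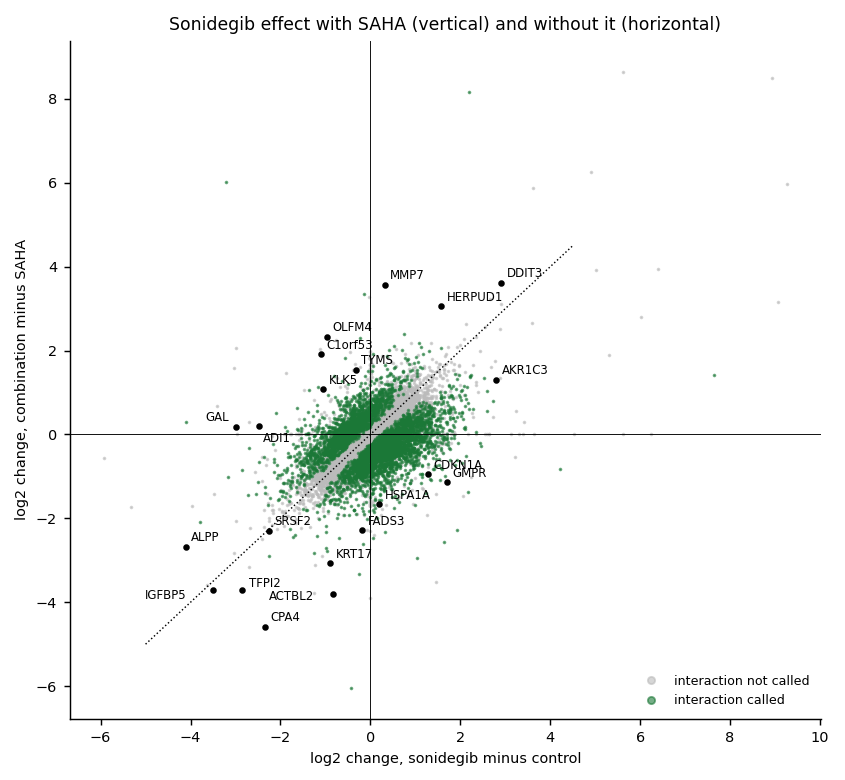
Log2 change between combination and SAHA (vertical axis) against log2 change between sonidegib and control (horizontal axis) for all tested genes, green where the interaction was called, with equal changes on the dotted diagonal. SRSF2 and IGFBP5 lie near the diagonal, MMP7 and OLFM4 far above it, and ACTBL2, KRT17 and GMPR below it.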

How the data were processed

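Total RNA was extracted with TRIzol and made into Illumina libraries, per the labels' protocols. The authors deposited 1 table of TPM, with 1 column per library, each summing to between 999999 and 1000001. Bowtie2 2.4.1 and GRCh38 are named in the submitters' processing notes. Quantifier, annotation, RNA selection, strand use and filters are not given in the sources used here. Gene type, position, length and GC content came from GENCODE 29, which held 58611 of 59324 identifiers.

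Here log2(TPM + 1) values of 13937 genes, those averaging 1 TPM or more in the 12 libraries, were fitted in limma 3.58.1 (R 4.3.3). The fit had 4 group means, 8 residual degrees of freedom and a variance trend with intensity. Tests were two-sided with Benjamini-Hochberg adjustment. A log2 change on this scale understates the change of genes at a few TPM. The script was tested on simulated data.

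The 51 gene lists held 1022 symbols, all found in the table after H2AC18 and H3C2, which matched no row, had been removed. Lists of other contents with these names exist, and counts refer to these members. Named genes were protein-coding and at 5 TPM or more in a group. They were the 15 largest rises and falls and up to 3 per list and direction among genes called without overlap between combination and SAHA, and the 6 largest called interactions per sign, whatever the call or overlap there. Fixed genes such as GLI1 and CDKN1A and fixed cell identity markers (ESR1, PGR, EPCAM and CDH1) were added. The members, lists and rules were chosen with earlier results of these data known. Other genes named, among them ASNS, ATF3, ATF5, AURKB, BIRC5, BRCA1, BRCA2, CDC6, CENPA, CPT1A, DDX39B, EEF1A1, ERN1, FOXM1, FTH1, GDF15, HHAT, HMGCS1, HNRNPM, HNRNPU, HSP90AA1, HSPA5, KIF20A, KIF7, MALAT1, MKI67, NEAT1, NQO1, PPP1R15A, RNA5S7, RNU1-3, SESN2, SHH, SQLE, TRIB3 and U2AF2, were chosen after their values were seen. No list was given a test of its own. Results of some single genes are not reported here. Alternatives were scaling, pseudocount, filters, moderation, the replicate block, leaving out each library and, added after seeing the data, GC centring.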

Additional observations from a re-analysis of the deposited data

Results flagged for a closer look

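The change between combination and SAHA differed from the change between sonidegib and control for 113 of the named genes, by the interaction test of that difference. The interaction is the first log2 change minus the second, both on the log2(TPM + 1) scale. On that scale a positive value means that sonidegib moved the gene further up, or less far down, in cells that also had SAHA. Where a group lies below 1 TPM this need not hold for the ratio of TPM. ALPP, with a positive value, averaged 0.473 against 8.50 TPM with SAHA present and 3.74 against 74.2 TPM without. Adjusted p-values over all tested genes lay between 1.40e-07 and 0.0491 (limma). Over all tested genes the interaction was called for 31.4%. Named genes were picked partly for large changes, some for the interaction itself, so their count does not estimate that share. The 12 extreme values named in the report are included, of which those of FAM220A and CDHR2 are lost without single libraries. The value of RNU1-3 is a fitted one, since 2 of its 4 groups are listed at 0 in every library, and is no bound on a fold change.

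Of these genes 53 had a positive interaction. The interaction on the log2 scale was 3.29 for OLFM4, 3.25 for MMP7, 3.17 for GAL, 3.0 for C1orf53, 2.68 for ADI1, 2.61 for GLYATL2, 2.53 for TMEM203, 2.13 for KLK5 and 2.13 for ATF5. It was 1.88 for TYMS, 1.85 for SMC4, 1.73 for KRT6B, 1.69 for CDC6, 1.49 for HERPUD1, 1.42 for ALPP, 1.31 for CHAC1, 1.25 for MKI67 and 1.20 for EXO1. Next came 1.10 for TOP2A, 1.09 for U2AF2, 1.09 for NPM1, 0.98 for SPC24, 0.98 for CDT1, 0.92 for MCM6, 0.88 for KIF20A, 0.83 for HNRNPA1 and 0.82 for MCM2. Smaller values were 0.80 for SRSF4, 0.76 for BIRC5, 0.75 for CPNE1, 0.74 for CDK1, 0.71 for DDIT3, 0.71 for XBP1, 0.65 for CD44, 0.63 for KRT15 and 0.60 for SRSF1. The list went on with 0.59 for FOXM1, 0.53 for PCNA, 0.49 for OPN3, 0.46 for PFKL, 0.45 for EPCAM, 0.44 for RAD54L, 0.41 for AURKB, 0.41 for PSMC4 and 0.37 for GAPDH. The smallest positive values were 0.35 for TK1, 0.32 for RPS24, 0.31 for HNRNPU, 0.30 for HNRNPM, 0.27 for KRT8, 0.24 for MT1X, 0.19 for ATF4 and 0.18 for EEF1A1.

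The other 60 had a negative interaction. The lowest values were -5.61 for RNU1-3, -2.99 for ACTBL2, -2.85 for GMPR, -2.72 for BORCS7-ASMT, -2.71 for FAM220A, -2.67 for CDHR2, -2.64 for RAET1G, -2.23 for CPA4 and -2.22 for CDKN1A. Then came -2.18 for KRT17, -2.13 for DUSP5, -2.10 for FADS3, -1.94 for SLC16A3, -1.85 for HSPA1A, -1.82 for GPRC5A, -1.71 for KRT23, -1.69 for MT1F and -1.67 for NEAT1. Values nearer to 0 were -1.59 for MX1, -1.50 for HSPA1B, -1.49 for AKR1C3, -1.45 for CPT1A, -1.43 for CORO1A, -1.38 for AKR1B10, -1.34 for CCN2, -1.30 for FADS1 and -1.23 for S100A7A. The interaction was also negative at -1.21 for EGR1, -1.10 for TAP1, -0.98 for GPR161, -0.98 for BIK, -0.96 for HDAC6, -0.96 for ATF3, -0.93 for MT-RNR2, -0.93 for BAD and -0.92 for AKR1C2. Further values were -0.85 for TFPI2, -0.81 for LSS, -0.80 for AKR1C1, -0.77 for HMOX1, -0.74 for MAX, -0.73 for C9orf3, -0.71 for SREBF1, -0.67 for CDH1 and -0.64 for ODC1. Values between these and the smallest were -0.60 for PPP1R15A, -0.56 for HDAC1, -0.55 for GADD45A, -0.55 for ERBB2, -0.53 for CD14, -0.51 for KRT19, -0.50 for SDF2L1, -0.48 for MAT2A and -0.47 for CRELD2. The smallest in size were -0.38 for NQO1, -0.30 for BCL2L1, -0.29 for KRT18, -0.27 for DNAJB11, -0.26 for FTH1 and -0.25 for SLC1A5. What set these differences was not tested. With 3 libraries per group no outlier test was run on single libraries.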

How the results depend on the processing

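Of 27 alternatives, those that moved a count of called genes by more than 1.5 times acted on changes of at least 2-fold. The 349 such rises became 575 with a pseudocount of 0.1 TPM, 125 with a pseudocount of 5 TPM and 228 when genes had to average 5 TPM or more. The 706 such falls became 286 with a pseudocount of 5 TPM and 449 after GC centring, which was added after the data had been seen. With a single library left out, 6226 to 7081 genes were called in the combination against SAHA, 2073 to 2504 higher and 3956 to 4685 lower. The corresponding ranges were 3776 to 4297 for the interaction and 6877 to 7802 for sonidegib against control. The scalings moved the split of rises and falls as given in the report. For 183 named genes with a test, 4853 of 4913 values kept the direction and the side of the threshold, 49 lost a call and 9 gained one. The change of SLC1A5 reversed to 0.08 after quantile normalization and to 0.07 after GC centring, and its call was also lost without SAHA replicate 2 or 3 or combination replicate 2 or 3. That of ADI1 was lost without SAHA replicate 1 or combination replicate 1 or 2. Of 2754 counts of called genes per list, 2552 stayed within 1.5 times the reported one. The causes of these shifts were not tested.

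The labels number the libraries 1 to 3 in every group, but deviations of same-numbered combination and SAHA libraries from their group means correlated at -0.06, 0.07 and 0.02 across genes, so the numbers were not taken to pair samples. A replicate block gave 7464 called genes, 2680 higher and 4784 lower, and 4798 interactions. The interaction has no value in the fit to only the 6 libraries compared. TPM keep no read counts, so no counting interval can be given, and genes at a few TPM rest on few reads.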

Other observations

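Several further genes among the 15 largest rises and falls belonged to no list. OPN3, an opsin, had 25.01, 23.9 and 24.6 TPM in the combination libraries, against 5.62, 4.25 and 5.44 TPM in the SAHA libraries (log2 change 2.07 ± 0.11, adjusted p = 1.08e-07), and CPNE1, a calcium-dependent membrane-binding protein, had 91.04, 91.7 and 90.3 TPM in the combination libraries, against 24.5, 23.8 and 21.9 TPM in the SAHA libraries (log2 change 1.92 ± 0.069, adjusted p = 1.04e-08). Both were tightly grouped and without overlap. TMEM203, a membrane protein of the endoplasmic reticulum, rose by 2.30 ± 0.28, the centrosome-related CEP57L1 by 1.92 ± 0.17, and GUCA1A by 2.08 ± 0.49 with combination libraries between 2.11 and 10.2 TPM. GPRC5A, an orphan receptor, averaged 10.1 ± 1.06 TPM in the combination and 74.9 ± 3.74 TPM in SAHA (log2 change -2.77 ± 0.12, adjusted p = 2.77e-08). ALPP, a placental alkaline phosphatase whose relatives can share reads, had 0.3, 0.65 and 0.47 TPM in the combination and 9.09, 9.75 and 6.65 TPM in SAHA (log2 change -2.68 ± 0.29, adjusted p = 1.52e-05), beside means of 3.74 TPM with sonidegib and 74.2 TPM in control. The S100 protein S100A7A changed by -2.42 ± 0.13, the aminopeptidase locus C9orf3 by -2.45 ± 0.18 and SRRM5 by -3.16 ± 0.33.

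Among genes that code for no protein, the largest rises were in 5S ribosomal RNA genes such as RNA5S7, with 143, 775 and 428 TPM in the combination and 0, 0 and 0 TPM in SAHA. Of the 17 copies 5 passed the test, and no fold change is given because all SAHA libraries are listed at 0. These short RNAs lack a poly(A) tail, and single copies varied severalfold between libraries of a group. RNU1-3, a copy of the U1 spliceosomal RNA, had 0, 0 and 0 TPM in the combination and 355, 260.3 and 2.05 TPM in SAHA. Its SAHA libraries were thus far apart, and its near-identical copies can share reads. NEAT1 and MALAT1, long nuclear RNAs, were not called (34.5 against 30.1 TPM and 40.95 against 30.4 TPM), but NEAT1 was called at 0.32 after median-of-ratios scaling. These genes were chosen after their values had been seen.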
